A study of Mus musculus with 4 samples.

Results

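Mitochondrial oxidative phosphorylation is carried out by 5 protein complexes, and this report follows the nuclear genes that encode their subunits in mouse prostate. The genes were chosen by name alone: every non-control probe on the array whose gene name begins with the standard stems for the subunits (Nduf followed by a, b, c, s or v and a digit, Cox4 to Cox8, Uqcr, Atp5, and Sdha to Sdhd), leaving out Cox8b and Cox7a1, which are treated separately as isoforms of striated muscle and brown fat. The rule found 80 genes of 28090 on the array, measured by 112 of 41174 probes. They comprise 35 genes of complex I, 4 of complex II, 7 of complex III, 15 of complex IV and 15 of complex V. A further 4 genes carry a matching name without encoding a core subunit: Cox4nb (now Emc8, of the endoplasmic reticulum membrane complex), Atp5s and Atp5sl (now Dmac2l and Dmac2), and Cox7a2l, a factor that joins complexes into larger assemblies.

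The study gave a γ-tocopherol-rich mixture of tocopherols (TmT), a preparation of vitamin E forms, by mouth to C57BL/6 mice and to TRAMP mice, and measured gene expression in the prostate. TRAMP mice carry a transgene in which a probasin promoter drives viral T antigens in prostate epithelium, and they develop prostate cancer with age; C57BL/6 mice do not carry it. All males were 8 weeks old, were fasted overnight, and received either olive oil or TmT at 600 mg/kg 12 h before the tissue was taken. Each of the 4 groups (C57BL/6 after oil, C57BL/6 after TmT, TRAMP after oil, TRAMP after TmT) had 3 mice but is represented by 1 array, and the sources used here do not say whether that array held RNA of 1 mouse or a pool. The prostate was taken as tissue, so epithelium, stroma and any adjoining fat or muscle entered the same RNA.

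Electrons from NADH enter the chain at complex I, and those from succinate enter at complex II, which is also an enzyme of the tricarboxylic acid cycle. Complex III passes them to cytochrome c, complex IV hands them to oxygen, and complex V, the ATP synthase, uses the resulting proton gradient to make ATP. In many tissues the nuclear genes for these subunits share regulators such as NRF1, the ETS-family factor GABP and YY1, and the prostate is known for an epithelium that secretes citrate rather than oxidising all of it.

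Of the 79 genes whose accession matched a RefSeq symbol, 64 had a promoter in the RefSeq table (GRCm38.p6; 250 bases before to 50 after the gene's start), and the short motifs of these 3 regulators were searched there on both strands. The NRF1 core GCGCATGC occurred in 9 of the 64 genes (14.1%), against 3.05% of 27025 genes. The ETS motif CCGGAAGT occurred in 5 of 64 (7.81%), against 4.31%. The YY1 motif AAGATGGC occurred in 11 of 64 (17.2%), against 3.19%. The 9 stretches with the NRF1 core are shown because that motif was found in a larger share of these promoters than of all promoters, a count with no test; capitals mark the core, on either strand, in the direction of the gene.
Atp5g2, chr15:102671071-102671100, minus strand: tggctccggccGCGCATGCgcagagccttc
Atp5k, chr5:108434431-108434460, minus strand: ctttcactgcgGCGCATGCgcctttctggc
Atp5l, chr9:44920963-44920992, minus strand: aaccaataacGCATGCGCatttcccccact
Cox6a1, chr5:115349102-115349131, minus strand: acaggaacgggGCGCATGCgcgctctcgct
Ndufa6, chr15:82354356-82354385, minus strand: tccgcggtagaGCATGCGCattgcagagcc
Ndufa8, chr2:36049328-36049357, minus strand: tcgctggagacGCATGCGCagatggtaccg
Sdhb, chr4:140961206-140961235, plus strand: aagcccagtggGCATGCGCcctacgggccg
Uqcr (now Uqcr11), chr10:80406807-80406836, minus strand: atcgccttcacGCATGCGCtatacgtctgc
Uqcrc1, chr9:108936667-108936696, plus strand: gactccgctctGCGCATGCgcagcgcggct

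The ETS matches are those of Atp5h, Cox8a, Ndufs3, Uqcr and Uqcrh, so that Uqcr, a small subunit of complex III, held both motifs; all 5 began at or before the annotated start. The YY1 motif lay elsewhere: in 9 of its 11 genes the match began after the start, as in the examples of Ndufa3, Ndufs7 and Atp5j2, whose letters contain an ATG.
Ndufa3, chr7:3617384-3617413, plus strand: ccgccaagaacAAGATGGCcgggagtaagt
Ndufs7, chr10:80249462-80249491, plus strand: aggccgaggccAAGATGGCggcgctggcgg
Atp5j2, chr5:145191500-145191529, minus strand: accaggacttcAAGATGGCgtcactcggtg

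Levels are given as log2 of the scanner's processed signal relative to the 75th percentile of the same array, so that 0 is the level of that percentile, and a difference of 1 is 2-fold. Levels of different genes are not compared, since each probe binds with its own strength. The scanner software's own error gave a typical error of ± 0.20 on a log2 difference for these genes (median; up to ± 2.04 for the dim Cox7b2 and Cox8c). That error covers reading the spot and not the spread between mice, which 1 array a group cannot show. Of the 80 genes, 75 were well above background on all 4 arrays. Ndufb9, Uqcrc2 and Atp5e have no value on the TRAMP oil array, where the software marked their spots as outliers. Cox7b2, a testis isoform, was not well above background on any array. Cox8c, also a testis isoform, was well above background only on the C57BL/6 arrays.

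The arrays differed in quality in ways that touch these genes. The 75th percentile of the signal was 161 for C57BL/6 oil, 118 for C57BL/6 TmT, 139 for TRAMP oil and 71.3 for TRAMP TmT, and the software's correction of a brightness gradient was applied on every array but the last. On the TRAMP oil array, 10.6% of spots lay in areas where at least 25% of the 75 nearest spots stood 2-fold or more off the other 3 arrays, against 1.8% on C57BL/6 oil, 1.15% on C57BL/6 TmT and 3.80% on TRAMP TmT. The spots of 11 of the 80 genes lay in such disturbed areas of the TRAMP oil array: Ndufa3, Ndufa6, Ndufa8, Ndufb9, Uqcrb, Uqcrc2, Cox4i1, Cox6c, Atp5g2, Atp5s and Cox7a2l. Luminal and secretory prostate markers (8 and 10 genes) were well above background on all 4 arrays.

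**Figure D1:**
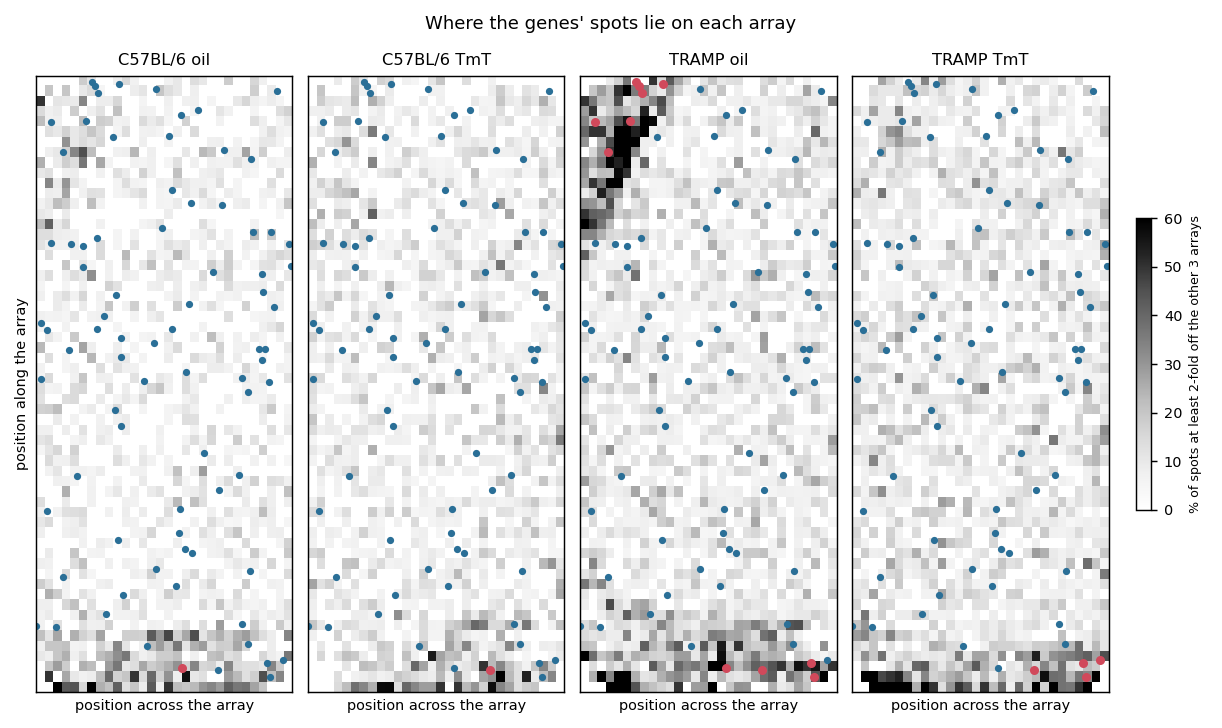
Position of the genes' spots on the 4 arrays. Each panel is 1 array seen from above; grey gives the percent of spots in a grid cell that were at least 2-fold off the other 3 arrays, blue points are spots of the 80 genes outside disturbed areas and red points those inside. The TRAMP oil array has a dark band at its upper left corner and along its lower edge, with 11 red points, against 1, 1 and 4 on the other arrays.

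In the comparison of lines, most of the subunit genes read lower in TRAMP than in C57BL/6 prostate. After oil the median difference of the 75 measured genes was -0.36 (middle 50% from -0.53 to -0.11), while the median over all genes was -0.07. With quantile normalization these medians were -0.12 and 0.02, so the size of the displacement depends on the scaling. Of the 75, 64 (85.3%) were below 0, against 54.5% of all genes. At least 1.5-fold lower were 16 of the 75, where 19.8% of all genes passed that mark, and 1 was at least 1.5-fold higher, where 16.9% of all genes were. The share of subunit genes past 1.5-fold lower was thus near the background share, while more of them than of all genes lay below 0 and fewer read at least 1.5-fold higher.

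The same comparison after TmT uses 2 other arrays. There the median of 78 measured genes was -0.23 (middle 50% from -0.60 to 0.00), and that of all genes was 0.01. Below 0 were 58 of 78 (74.4%), against 49.5% of all genes. The number at least 1.5-fold lower was 21, against a background of 17.3%, and 4 were at least 1.5-fold higher, against 19.6%. Of the 75 genes measured in both pairs, 49 (65.3%) were lower in TRAMP in both, while 34% of all genes were, and 5 were higher in both. Among the complexes the count lower in both pairs was 23 of 34 for complex I, 3 of 4 for complex II, 3 of 6 for complex III, 7 of 13 for complex IV and 11 of 14 for complex V. Cytosolic ribosomal protein genes, another large family of abundant transcripts, gave 38 of 72 (52.8%), and mitochondrial ribosomal protein genes 33 of 73 (45.2%). The cytosolic ribosomal genes were themselves displaced: their median line difference was -0.20 after oil, with 73.6% of 72 genes below 0 and 4 at least 1.5-fold higher, and -0.32 after TmT, with 22 of 74 at least 1.5-fold lower and 4 higher, so that after TmT their median lay below that of the subunit genes.

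**Figure D2:**
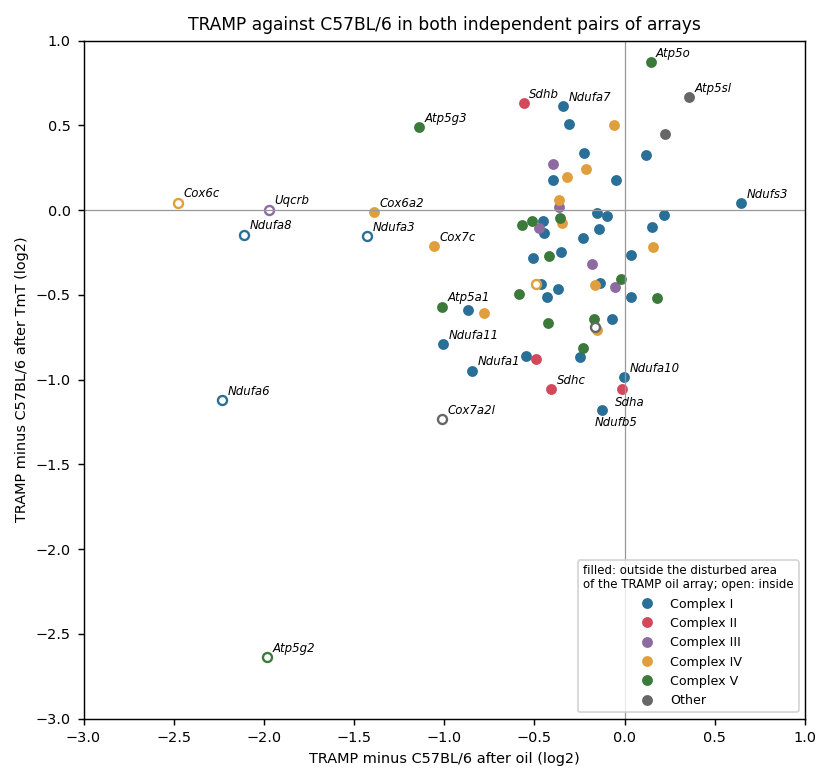
Difference between TRAMP and C57BL/6 after oil (horizontal axis, log2) and after TmT (vertical axis, log2) for the 75 genes well above background on all 4 arrays. Each point is 1 gene, coloured by complex; open points have their spot in a disturbed area of the TRAMP oil array. Below 0 on both axes are 49 of the 75 genes, and above 0 on both are 5; Cox6c, Uqcrb and Ndufa8 lie far to the left but near 0 on the vertical axis.

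Between the TmT and oil arrays of C57BL/6 most of the genes differed little. The median of 79 genes was -0.13, against 0.02 for all genes, and 56 (70.9%) were below 0, against 48% of all genes. At least 1.5-fold lower were 2, where the background was 9.83%, and at least 1.5-fold higher was 1, where it was 11%. In TRAMP the spread was wider: 17 of 75 genes were at least 1.5-fold lower after TmT, against 14% of all genes, and 15 were at least 1.5-fold higher, against 21.8%. The median was -0.12, against 0.10 for all genes, and 41 of 75 (54.7%) were below 0, against 44.1%. In both lines alike, 34 of 75 genes (45.3%) were lower after TmT, and 24.4% of all genes were; 13 were higher in both, and 28 differed in sign.

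A limma fit over the 4 arrays, with a term for line and a term for treatment, was the only test the design allows. It rests on 1 residual degree of freedom for each gene, shared across 19925 genes. That residual is the interaction, the change of the line difference with treatment, so the p-values do not measure the spread between mice. The ± of a fitted difference is the standard error of this fit and not the scanner error. For line it called 27 genes (0.136%) at an adjusted p under 0.05, and none of the 76 subunit genes in the fit was among them; 6 of these, Cox8c among them, had an unadjusted p under 0.05, against 15.1% of all genes. Cox8c entered the fit through the C57BL/6 arrays alone, since its TRAMP levels are not above background, so its fitted difference is no measured one and is not given. The fitted line difference was below 0 for 62 of the 76, with a median of -0.30. Among the other subunit genes the lowest limma adjusted p for line was that of Atp5g2 (0.0878, difference -2.31 ± 0.35, lower in both TRAMP arrays), whose spot lay in disturbed areas of both TRAMP arrays. For treatment the fit called no gene at all (0%), with 1248 genes (6.26%) and 2 subunit genes at an unadjusted p under 0.05. These 2 were Atp5g2 and Cox8c, and the TRAMP levels of Cox8c are not above background. Without spots in disturbed areas it called 234 of 18344 genes for line (1.28%), and Cox8c, with the limit just given, was the 1 subunit gene among them. The values below are therefore descriptions of 4 arrays, and no difference of a subunit gene measured in both lines passed the test in either fit.

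**Figure D3:**
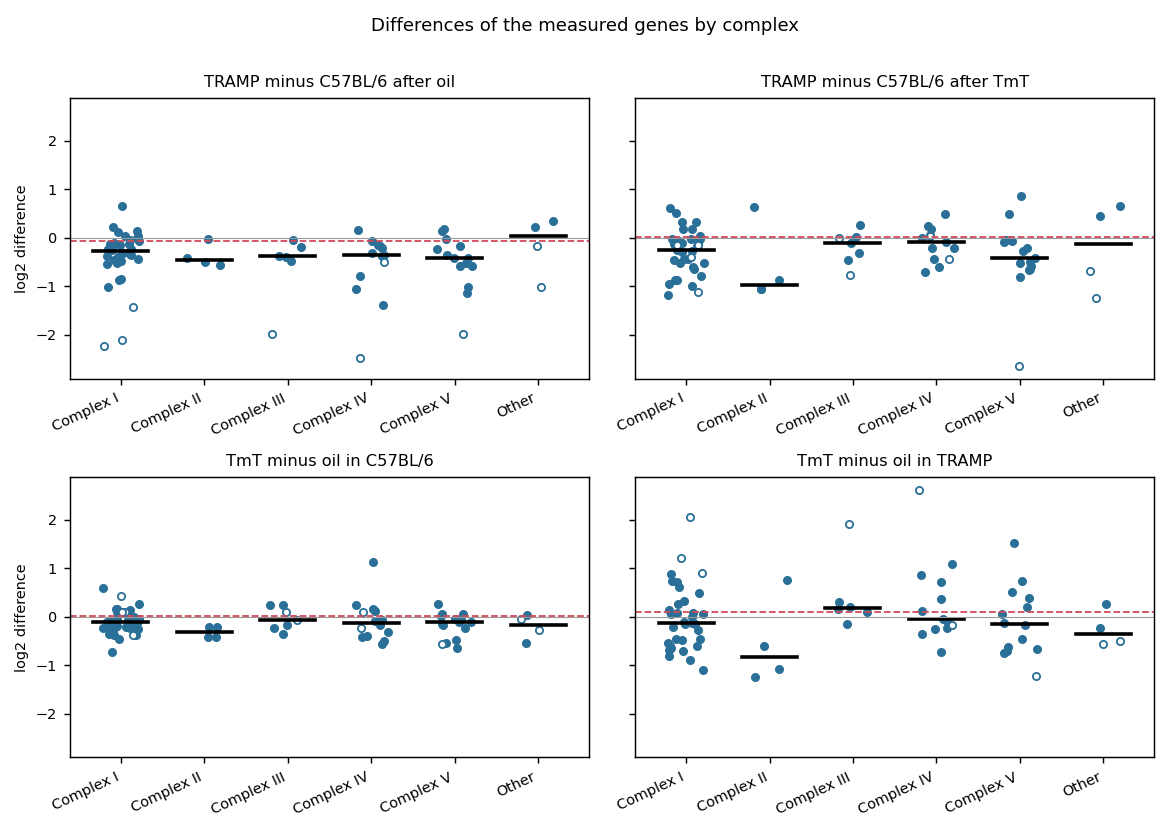
Log2 differences of the measured genes in the 4 comparisons, by complex. Each point is 1 gene well above background on both arrays of the comparison, black bars are medians of the complex, the dashed line is the median of all genes, and open points have their spot in a disturbed area of the TRAMP oil array. In the TRAMP minus C57BL/6 panels the 5 complexes' medians lie below the dashed line, and the TmT minus oil panel for TRAMP has the widest spread.

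Complex I is the entry point for NADH and the largest of the complexes; its catalytic core is surrounded by accessory subunits. After oil its median line difference was -0.28 over 34 genes, with 28 below 0, and after TmT it was -0.24 over 35 genes, also with 28 below 0. Ndufa1, an accessory subunit encoded on the X chromosome and needed for assembly, had levels of 7.30 in C57BL/6 oil, 7.29 in C57BL/6 TmT, 6.45 in TRAMP oil and 6.34 in TRAMP TmT. Both C57BL/6 arrays read higher than both TRAMP arrays, by 0.84 after oil and 0.95 after TmT, while oil and TmT arrays of a line were within 0.11 of each other. Its second probe gave the same order, with line differences of -0.80 and -1.23. The fitted line difference was -0.90 ± 0.32, with a limma adjusted p of 0.294.

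Ndufa11, an accessory subunit of the membrane arm, showed the same order of arrays. Its levels were 0.55, 0.39, -0.46 and -0.40 in C57BL/6 oil, C57BL/6 TmT, TRAMP oil and TRAMP TmT, so that TRAMP read lower by 1.01 after oil and by 0.79 after TmT. Ndufb2, a small subunit of the same arm, read 2.24, 2.02, 1.37 and 1.43, but a second probe, designed on a different transcript, was higher in TRAMP by 0.77 and 0.85. Ndufa1, Ndufa11, Ndufb2 and Cox7b were the 4 genes outside the disturbed areas that were at least 1.5-fold lower in TRAMP in both pairs of arrays; Ndufa6, Atp5g2 and Cox7a2l were the 3 inside them. Together they are 7 of 75 genes, and 6.35% of all genes met the same mark.

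Ndufa6, Ndufa8 and Ndufa3 gave the lowest line differences of complex I after oil, and all had their spot in a disturbed area of the TRAMP oil array. Ndufa8, an accessory subunit with paired cysteine motifs, read 4.64, 4.74, 2.53 and 4.60, so the TRAMP oil array alone was low, by 2.11 against C57BL/6 oil. There 41.3% of the neighbouring spots stood 2-fold or more off the other arrays. Its second probe, which shares a run of 40 bases with the first, read 5.07, 4.94, 4.97 and 5.13, although the software marked it as an outlier on every array but the first and it too lay in a disturbed area of the TRAMP oil array (32.0% of neighbours). The first 30 of the shared bases, on chromosome 2, are shown because 2 spots that both carry them differed on the same array.
Ndufa8, bases common to both probes: agttaatttatgtgacttggcagttattct

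Ndufa6, an accessory subunit of the LYR-motif family, read 1.79, 1.89, -0.45 and 0.77, lower in TRAMP by 2.23 after oil and 1.12 after TmT. Its share of neighbours off was 34.7% on TRAMP oil, 28.0% on TRAMP TmT and 30.7% on C57BL/6 TmT, all disturbed areas. Ndufa3, a small membrane-arm subunit, read 3.44, 3.06, 2.01 and 2.91, lower by 1.43 after oil and by 0.15 after TmT. Its spot lay in disturbed areas of both TRAMP arrays, with 32.0% of neighbours off on TRAMP oil and 36.0% on TRAMP TmT. For these 3 genes TRAMP oil was the lowest of the 4 arrays, and the part of the disturbed area in that reading was not tested. Without spots in disturbed areas, the median line difference after oil of all measured subunit genes was -0.31 over 67 genes, with 9 at least 1.5-fold lower and 1 higher.

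A group of core subunits of complex I (Ndufs1, Ndufs3, Ndufs7, Ndufs8, Ndufv1 and Ndufv2) was set apart after the values had been seen. Ndufs3 had the highest line difference after oil of all 80 genes: it read 4.26, 4.40, 4.91 and 4.44, higher in TRAMP oil than in C57BL/6 oil by 0.65, while the TmT arrays differed by 0.04. In TRAMP, 5 of these 6 genes were lower after TmT than after oil, with a median of -0.51, whereas 13 of 27 measured accessory genes were below 0, with a median of 0.06. The exception was Ndufs7, which bears a terminal iron-sulfur cluster and was higher after TmT in both lines (levels 1.08, 1.67, 0.62 and 1.23; differences 0.58 in C57BL/6 and 0.61 in TRAMP). Ndufv2 was the only one of the 75 subunit genes measured in all arrays to be at least 1.5-fold lower after TmT in both lines, a mark that 2.25% of all genes met. It read 1.89, 1.17, 1.54 and 0.93, lower by 0.72 in C57BL/6, the lowest value of that comparison, and by 0.61 in TRAMP. Its second probe was higher after TmT in both lines, by 0.23 and 0.66.

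Among accessory subunits, Ndufa10, of the membrane arm, read 1.54, 1.42, 1.54 and 0.44, and Ndufb5 read 2.16, 2.31, 2.03 and 1.14. In both the TRAMP TmT array alone was low, by 1.10 and 0.89 against TRAMP oil. Ndufb9 was the third highest gene for TmT in C57BL/6 (3.96 after oil, 4.39 after TmT, difference 0.43), and Ndufs4, an accessory subunit whose loss causes a severe complex I deficiency, was among the highest for line after oil (5.40, 4.95, 5.62 and 4.92, difference 0.22). Ndufa4, now regarded as a subunit of complex IV, read 6.63, 6.56, 6.74 and 6.88 and was slightly higher in TRAMP in both pairs, by 0.12 and 0.33.

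Complex II, succinate dehydrogenase, is encoded wholly in the nucleus and is shared with the tricarboxylic acid cycle. Its 4 genes were split between the catalytic head (Sdha, the flavoprotein, and Sdhb, the iron-sulfur protein) and the membrane anchors (Sdhc and Sdhd), but the values did not follow that split. Sdha read 1.86, 1.66, 1.85 and 0.60, Sdhc read 3.78, 3.36, 3.37 and 2.30, and Sdhd read 3.87, 3.65, 3.38 and 2.77 in C57BL/6 oil, C57BL/6 TmT, TRAMP oil and TRAMP TmT. The TRAMP TmT array was the lowest for all 3 of these genes, by 1.25, 1.07 and 0.61 against TRAMP oil and by 1.06, 1.06 and 0.88 against C57BL/6 TmT. Sdhb read 1.91, 1.49, 1.35 and 2.12, so the same array was its highest, by 0.77 against TRAMP oil. The second Sdha probe gave a smaller difference of -0.45 between TRAMP TmT and TRAMP oil. In C57BL/6 the 4 genes were lower after TmT by 0.20 to 0.43. No Sdh gene had its spot in a disturbed area, and the lowest limma adjusted p for line among them was 0.391 (Sdhc, -0.73 ± 0.35, lower in TRAMP in both pairs).

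**Figure D4:**
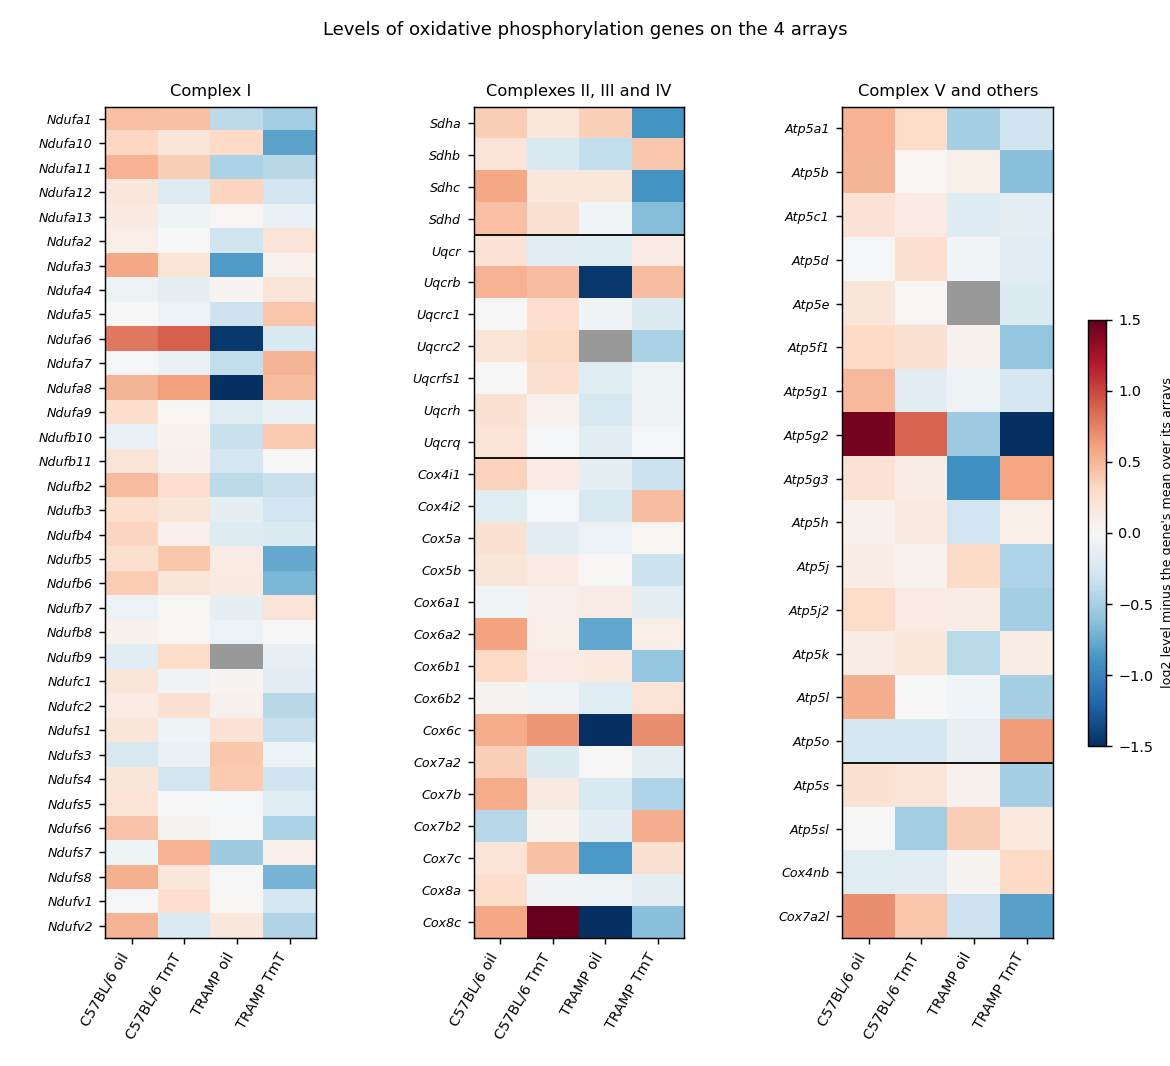
Levels of 79 of the 80 genes on the 4 arrays as log2 level minus that gene's own mean over the arrays with a value; red is above and blue below the gene's mean, grey has no value, and black lines part the complexes. Sdha, Sdhc and Sdhd are bluest on TRAMP TmT while Sdhb is red there, and Cox6c, Ndufa8 and Uqcrb are blue on TRAMP oil alone.

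Complex III, the cytochrome c reductase, had a median line difference of -0.38 after oil over 6 measured genes, with 6 of 6 below 0, and of -0.10 after TmT over 7 genes. Uqcrb, a small subunit near the quinone site, read 5.91, 5.84, 3.94 and 5.84, lower on TRAMP oil by 1.97, and 40.0% of the neighbouring spots there stood off. The Rieske iron-sulfur protein gene Uqcrfs1 read 5.04, 5.29, 4.86 and 4.97, and Uqcrh, the acidic hinge protein, read 6.80, 6.63, 6.33 and 6.52. Both were lower in TRAMP in both pairs, by 0.18 and 0.32 for Uqcrfs1 and by 0.47 and 0.10 for Uqcrh. The core protein gene Uqcrc2 read 4.98, 5.07 and 4.30 in C57BL/6 oil, C57BL/6 TmT and TRAMP TmT. In TRAMP, 5 of the 6 measured genes of the complex were higher after TmT, with a median of 0.17; in C57BL/6 the median was -0.07.

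Complex IV, cytochrome c oxidase, has nuclear subunits that exist as isoforms with different tissue patterns. After oil 12 of its 13 measured genes were lower in TRAMP (median -0.35), and after TmT 8 of 13 were (median -0.07). Cox6c had the lowest line difference of all 80 genes after oil. It read 5.30, 5.40, 2.83 and 5.45, so that TRAMP oil alone was low, by 2.48. Its spot lay in a disturbed area of TRAMP oil, with 36.0% of neighbours off, and of C57BL/6 oil, with 25.3% off. Its difference for TmT in TRAMP, 2.62, was the highest of the 80 for the same reading. Cox7c, a small subunit at the membrane, read 4.26, 4.50, 3.21 and 4.29, lower on TRAMP oil by 1.05 and outside the disturbed areas. Cox7b, a subunit needed for assembly of the complex, read 4.77, 4.36, 4.00 and 3.76, lower in TRAMP by 0.78 after oil and by 0.60 after TmT.

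The isoform pairs of complex IV were compared as patterns and not as levels. Cox6a1, the widely expressed isoform, read 5.39, 5.51, 5.55 and 5.29, with line differences of 0.16 and -0.22. Cox6a2, the heart and skeletal muscle isoform, read 4.84, 4.33, 3.46 and 4.32, lower in TRAMP by 1.39 after oil and by 0.01 after TmT, and its spot lay outside the disturbed areas. The muscle isoform Cox7a1, left out of the gene set, read 5.01, 4.59, 4.01 and 4.11 and was lower in TRAMP by 1.00 after oil, whereas the widely expressed Cox7a2 read 4.56, 4.00, 4.19 and 4.06 and was lower by 0.37. Cox8b, the other left-out isoform, read 2.71, 1.97 and 1.86 on the arrays with a value (none on TRAMP oil), and its widely expressed counterpart Cox8a read 4.90, 4.58, 4.55 and 4.50. The muscle isoforms with a value on both arrays, Cox6a2 and Cox7a1, thus had lower line differences after oil than their counterparts.

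Skeletal muscle markers were low on the same array as Cox6a2. Of 14 measured markers (Cox6a2 itself is on the list), 12 were at least 1.5-fold lower on TRAMP oil than on C57BL/6 oil (median difference -0.92). The share over all genes was 19.8%. In the TmT pair 8 of 15 markers were (median -0.60), against 17.3% of all genes. Their summed level, over 14 genes in multiples of the array's 75th percentile, was 757 in C57BL/6 oil, 710 in C57BL/6 TmT, 428 in TRAMP oil and 706 in TRAMP TmT. A further marker, Tnnc2, has no value on TRAMP oil. In tissue RNA, fewer muscle cells and less RNA per muscle cell cannot be told apart, and the part of muscle tissue in the subunits' differences was not tested.

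Other cell type markers also differed between these arrays. White adipocyte markers were higher on TRAMP oil alone (summed levels 63.2, 45.1, 290.0 and 52.4 over 12 genes). The brown fat gene Ucp1, an uncoupler of the respiratory chain, read -2.60, -3.22, 1.58 and -4.63, the last of them not well above background. The brown adipocyte list had summed levels of 37.8, 32.2, 28.6 and 23.5 over 9 genes. Most of that sum on each array came from Cox7a1, which is also a muscle isoform, so the sum does not describe the list as a whole. Of the list's 7 genes measured after oil, 4 were at least 1.5-fold higher in TRAMP and 1, Cox7a1, was lower (16.9% and 19.8% of all genes). The median difference of the 7 was 0.64. Proliferation markers were higher in TRAMP (summed levels 47.9, 41.9, 293 and 159 over 10 genes), and prostate secretory genes were lower (1250, 1640, 484 and 992 over 10 genes). Fibroblast, endothelial and basal epithelial markers were low on TRAMP oil: their summed levels were 142, 117, 66.3 and 120.0 (8 genes), 8.44, 7.95, 4.34 and 7.36 (8 genes), and 30.4, 25.2, 13.4 and 24.0 (6 genes). After oil 7 of 8 fibroblast, 7 of 8 endothelial and 4 of 6 basal markers were at least 1.5-fold lower in TRAMP, against 19.8% of all genes. The medians were -0.70, -0.89 and -0.83. Their part in the results was not tested.

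The other isoforms of complex IV were as follows. Cox4i1, the common isoform of the regulatory subunit, read 6.59, 6.37, 6.10 and 5.93, lower in TRAMP by 0.49 and 0.44 (28.0% of neighbours off on TRAMP oil), and Cox4i2, known for its response to low oxygen, read -2.31, -2.16, -2.37 and -1.66. Cox6b1 read 1.64, 1.46, 1.48 and 0.76, lower on TRAMP TmT than on TRAMP oil by 0.73. The testis isoform Cox6b2 read 0.97, 0.89, 0.76 and 1.13. Cox8c read -4.64, -3.50, -6.88 and -5.84, the last being the lowest value that array's processing gives. Its TRAMP levels were not measured. With each TRAMP array's lowest well-above-background level in their place, its mean C57BL/6 level was higher by 0.126 (1.09-fold). The scanner error of its line differences was ± 1.468 after oil and ± 1.455 after TmT, so no line difference is given. Cox8c was higher after TmT in C57BL/6 by 1.14 ± 0.37 (scanner error), the highest value of that comparison.

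Complex V, the ATP synthase, read lower in TRAMP for most of its genes in both pairs. After oil its median was -0.42, with 12 of 14 genes below 0, and after TmT -0.41, with 13 of 15 below 0. Atp5a1, the alpha subunit of the catalytic head, read 6.71, 6.47, 5.70 and 5.90, so both TRAMP arrays were below both C57BL/6 arrays, by 1.01 after oil and 0.57 after TmT. Its second probe was also lower in TRAMP in both pairs, by 0.27 and 0.81. The beta subunit gene Atp5b read 6.33, 5.85, 5.90 and 5.19. It was lower in TRAMP by 0.42 and 0.66 and lower after TmT by 0.48 and 0.71. Its other probes gave smaller line differences, of -0.083 and -0.020 and of -0.058 and -0.255. Their differences for TmT were -0.129 and -0.066 and -0.543 and -0.741. The fitted treatment difference of Atp5b was -0.60 ± 0.33, with a limma adjusted p of 0.778. No subunit gene had a lower adjusted p for treatment, but several shared it, among them Atp5g2 and Cox6c, whose unadjusted p was lower.

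The stalk, stator and membrane genes of the synthase varied among themselves. Atp5c1, the gamma subunit, was lower in TRAMP by 0.42 and 0.27, and Atp5l, subunit g of the membrane part, by 0.59 and 0.49 (levels 3.90, 3.35, 3.31 and 2.86). Atp5f1, subunit b of the stator, read 4.64, 4.56, 4.40 and 3.75, lower in TRAMP by 0.23 and 0.81. Its other probes, designed on different transcripts, were higher in TRAMP in both pairs, by 0.12 and 0.72 and by 0.46 and 1.16. Atp5o, the subunit that joins the stator to the catalytic head, read higher in TRAMP in both pairs. Its levels were 3.39, 3.40, 3.53 and 4.28, higher in TRAMP by 0.14 after oil and 0.87 after TmT, which was the highest line difference after TmT of all 80 genes.

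The c subunit of the proton-carrying ring is encoded by 3 genes, Atp5g1, Atp5g2 and Atp5g3, whose mature proteins are the same and whose import sequences differ. Atp5g1 read 1.93, 1.29, 1.36 and 1.20, lower after TmT in C57BL/6 by 0.65. Atp5g3 read 5.14, 5.03, 4.00 and 5.52, low on TRAMP oil by 1.14 and high on TRAMP TmT by 1.52 against TRAMP oil, with its spot outside the disturbed areas. Atp5g2 had the lowest line difference after TmT of all 80 genes. It read 4.71, 4.14, 2.73 and 1.51, lower in TRAMP by 1.98 after oil and by 2.64 after TmT, and lower after TmT by 0.57 in C57BL/6 and by 1.22 in TRAMP. The order of the 3 genes' arrays thus differed from gene to gene.

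A second probe annotated to Atp5g2 read 2.21, 1.81, 2.01 and 1.41, with line differences of only -0.20 and -0.41. The first probe's spot lay in disturbed areas of TRAMP oil (33.3% of neighbours off) and TRAMP TmT (29.3%). When spots in disturbed areas were left out, the second probe stood for the gene, and its fitted line difference was -0.30 ± 0.32, with a limma adjusted p of 0.678. Binding of the first probe to the transcripts of the other c subunit genes was not tested. The 60-base sequences of the probes are shown because the size of the Atp5g2 difference depends on which of them is read (mm9, minus strand).
Atp5g2, first probe, chr15:102493444-102493503: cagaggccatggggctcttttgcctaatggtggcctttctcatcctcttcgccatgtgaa
Atp5g2, second probe, chr15:102495586-102495645: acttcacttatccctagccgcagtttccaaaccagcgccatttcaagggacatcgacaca

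Of the 4 genes that are not core subunits, Cox7a2l read 3.55, 3.27, 2.54 and 2.04, lower in TRAMP by 1.01 after oil and 1.23 after TmT (25.3% of neighbours off on TRAMP oil). Atp5sl, an assembly factor of complex I despite its older name, read -2.80, -3.33, -2.44 and -2.66 and was higher in TRAMP by 0.36 and 0.67. Its second probe gave 0.541 and 0.005. Cox4nb read 0.47, 0.49, 0.69 and 0.94 and was also higher in TRAMP in both pairs, by 0.22 and 0.45. The second Cox4nb probe was higher in TRAMP by 0.13 after oil. On TRAMP TmT that probe read -4.28, not well above background, against -2.38 on C57BL/6 TmT. With only the 76 core subunits, the medians of the line differences were -0.36 after oil and -0.23 after TmT.

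Genes measured by more than 1 probe gave a second view of the precision of single-gene values. Some of these probes were designed on different transcripts, so their spread is not that of repeat readings alone. In the 23 genes with at least 2 measured probes, the line difference after oil differed between probes of a gene by a median of 0.38, and by 1 or more in 2 genes; after TmT the median was 0.64, with 8 genes at 1 or more. For TmT the values were 0.28 (1 gene) in C57BL/6 and 0.62 (5 genes) in TRAMP. The probes of a gene differed in sign in 7, 9, 9 and 11 of the 23 genes in these 4 comparisons. The median spread between probes was thus at least as large as the median difference of the subunit genes. It belongs to single genes, however, and does not measure the precision of a median over many genes. Ndufa7, a complex I accessory subunit, is an example: its probes gave line differences after TmT of 0.61 and -1.62. Other genes with probes at least 1 apart in some comparison were Atp5f1, Atp5s, Ndufa12, Ndufc1, Ndufs1, Ndufs5, Ndufv2 and Ndufb2; the second Ndufs1 probe lies on the strand opposite to the first.

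**Figure D5:**
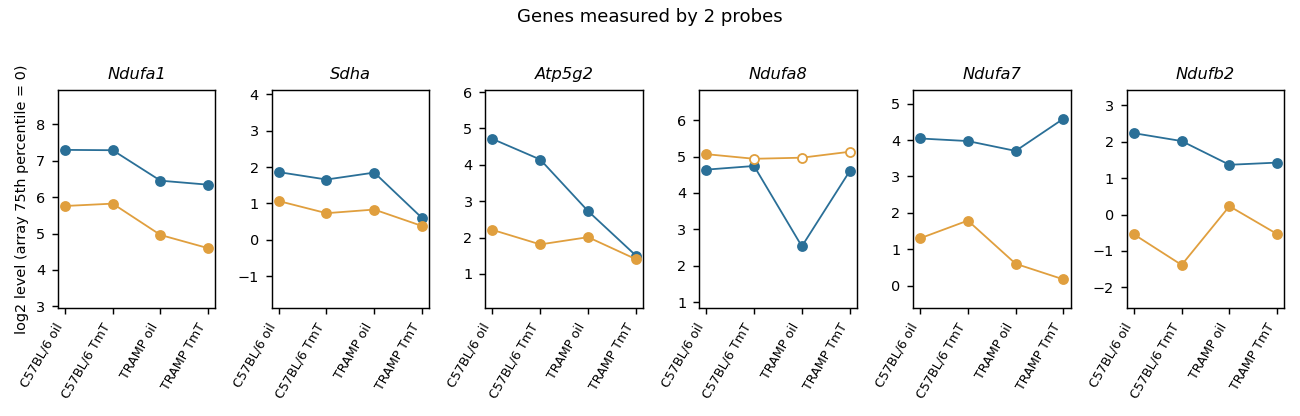
Log2 levels on the 4 arrays for 6 genes measured by 2 probes; blue is the probe that stands for the gene and orange the other, and open points were marked as outliers by the software. The probes of Ndufa1 run in parallel, the Ndufa8 probes part on TRAMP oil, the difference between lines is seen with only 1 Atp5g2 probe at its full size, and the line differences after TmT have opposite signs for the probes of Ndufa7 and of Ndufb2. The vertical axes span the same number of log2 units in each panel.

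The motif groups were also set side by side with the values. The 9 genes with the NRF1 core had a median line difference of -0.56 after oil, against -0.24 for those without it, but both medians were -0.22 after TmT; Ndufa6, Ndufa8 and Atp5g2, with spots in disturbed areas, are among the 9. For the YY1 motif the medians after oil were -0.17 with and -0.34 without. These are descriptions of the letters in a short window and not of binding.

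Genes that build, feed or regulate the chain had medians nearer to 0 after oil than the subunit genes. Of 32 assembly factors listed, 30 were measured after oil and 28 after TmT. Their median line difference was -0.11 after oil, with 7 genes at least 1.5-fold lower and 3 higher (19.8% and 16.9% of all genes), and -0.36 after TmT, with 12 lower and 0 higher (17.3% and 19.6% of all genes). No gene of this list, nor of the lists of carriers, the tricarboxylic acid cycle and regulators described next, passed the limma test for line or treatment, and the lowest adjusted p for line among them was 0.191. Surf1, an assembly factor of complex IV, read 1.15, 1.45, 0.44 and -0.13, lower in TRAMP by 0.71 and 1.57. Tmem126b, of the complex I assembly machinery, read 0.91, 0.30, 1.40 and -0.36, lower after TmT in TRAMP by 1.76, and in that comparison 7 of 28 assembly factors were at least 2-fold lower and 0 higher, against 4.86% and 8.66% of all genes. Foxred1, which acts on complex I, read -0.62, -0.92, -1.37 and -2.45.

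Electron carriers and ADP/ATP exchangers (22 measured of 25 listed) had medians of -0.10 after oil and -0.30 after TmT. Slc25a3, the phosphate carrier, read 1.57, 1.39, 0.95 and -0.09, lower in TRAMP by 0.62 and 1.48. Ckmt2, the mitochondrial creatine kinase of striated muscle, read 3.84, 3.66, 2.63 and 2.41, lower by 1.21 and 1.26. Tricarboxylic acid cycle genes had medians of -0.14 and -0.37; Idh3b, a subunit of isocitrate dehydrogenase, read 3.72, 3.12, 3.56 and 1.52 and was lower after TmT in TRAMP by 2.04. Like Sdha and Sdhc, Idh3b was lowest on TRAMP TmT.

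Regulators of mitochondrial biogenesis (18 genes found) had medians close to 0, at 0.07 after oil and -0.05 after TmT. Gabpa, a subunit of the ETS factor GABP, read 1.27, 1.10, 2.50 and 1.64 and was higher in TRAMP by 1.23 after oil and 0.55 after TmT. The coactivator gene Ppargc1a read 2.02, 2.66, 2.15 and 2.34, with line differences of 0.13 and -0.33, and the related Ppargc1b read -2.68, -4.01, -3.91 and -3.77. The genes named for these lists were chosen by size and carry no test of the list.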

How the data were processed

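Total RNA of 4 mouse prostate samples was hybridised to 1-colour Agilent arrays (Cy3), 1 array per group. Signal intensity was read with Feature Extraction 10.2.1.3, per the file headers, which background-subtracts it and, on 3 of the 4 arrays, corrects a gradient; the deposited value table held the same intensity for all 45018 features. Here control spots and outlier spots (131 to 348 per array) were left out, log2 of the intensity minus log2 of the array's 75th percentile was taken, spots of a probe were averaged, and the probe with the highest mean, preferring probes with a value on every array, stood for a gene. A difference needed both arrays well above background. limma 3.58.1 in R 4.3.3 (Benjamini-Hochberg adjustment) fitted line and treatment to genes that passed background on 2 or more arrays and was tested on simulated data. Spots well above background made up 63.9% to 74.1% of an array, and the repeat spots of 143 probes had a median SD of 0.109 to 0.177 (log2). Probe positions are mm9, per the file headers. No sample was left out. Named genes were the extremes of each comparison, those at least 2-fold different, isoforms, Sdh genes and genes whose probes were at least 1 apart. The members and gene lists were chosen with earlier results of these data known. Alternatives were other background corrections, scalings, filters and probe rules; leaving out disturbed areas, and keeping core subunits only, were chosen after seeing the data. The values of 1 gene are not reported singly here.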

Additional observations from a re-analysis of the deposited data

How the results depend on the processing

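The median difference of the subunit genes was below 0 in each comparison under each alternative tried (32 values). After oil it was -0.12 with quantile normalization (-0.36 as reported), and with normexp background correction it was -0.46 for line after TmT (-0.23 as reported) and -0.38 for TmT in TRAMP (-0.12 as reported). Genes at least 1.5-fold different between lines after oil numbered 10 without spots in disturbed areas (17 as reported), with fewer genes measured. For TmT in C57BL/6 they numbered 9 with normexp and 6 before gradient correction (3 as reported). A 2-fold threshold left 6 of 78 for line after TmT, 1 of 79 for TmT in C57BL/6 and 10 of 75 for TmT in TRAMP (25, 3 and 32 as reported). At 2-fold, all genes gave 1059 lower and 1460 higher of 17321 for line after TmT. For TmT in C57BL/6 they gave 491 and 586 of 18745. For TmT in TRAMP they gave 850 and 1514 of 17490 (4.86% and 8.66%). At 1.5-fold, median scaling gave 26 lower and 1 higher for line after TmT, and quantile normalization gave 2 and 2 for TmT in C57BL/6. For TmT in TRAMP normexp gave 24 lower and 7 higher. The 1.5-fold counts under alternatives have no share over all genes beside them, so they describe the subunit genes alone. limma called 12 subunit genes for line and 3 for treatment with normexp (1384 and 337 of all genes), where the estimated spread was the same for every gene; 8 of the 12 had spots in disturbed areas. Without disturbed areas it called 234 genes and 1 subunit gene, Cox8c, which is not above background on either TRAMP array and so gives no measured difference. The other causes were not tested. No paired analysis was possible because each group is 1 array. The low signal of TRAMP TmT and the absence of repeat arrays limit the precision.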
